A study of Mus musculus with 9 samples.

Results

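The genes described here are the chemokines that draw neutrophils into inflamed tissue and the receptors that read them, namely the 5 ligands Cxcl1, Cxcl2, Cxcl3, Cxcl5 and Ppbp and the 2 receptors Cxcr1 and Cxcr2. These 7 genes were taken by name from the deposited table of 34637 genes with FPKM values, out of 55401 genes in the count table. They were selected on measured values of these same libraries, namely their levels in the library MXL12 against the other 8 libraries and in the MR against the MXL libraries, so both comparisons are given as a description. Intervals state the error of a value, and counts from tools that test all genes are printed without being read as tests of the members.

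The libraries were made from the back skin of male C57BL/6 mice, whose age was given as 6 to 8 weeks at the start of the study. All mice analysed here carried a DNCB-induced dermatitis, a contact allergy to a small reactive molecule. DNCB was painted on shaved skin at 1% on day 1 and at 0.5% repeatedly from day 4 to day 21. The FJDHF group (5 libraries) was fed daily after day 7 with the Fangji Dihuang formulation, an extract of botanical drugs. The authors state that they sequenced their medium-dose group, and they also had a high-dose group. The Model group (4 libraries) received water instead, and skin was collected on day 28. Skin without DNCB was not analysed here, so no value below is relative to healthy skin. Libraries appear in the tables under short codes that no source explains, which are MR1, MR3, MR3_4, MR4_5 and MR5 on one side and MXL1, MXL12, MXL3_4 and MXL_3 on the other. MR was read as FJDHF (5 columns) and MXL as Model (4 columns), since the numbers of columns match the numbers of samples. This assignment is an assumption on which every direction between the groups rests, and whether a code such as MR3_4 or MXL12 stands for more than 1 mouse is not known.

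CXC chemokines are small secreted proteins, and those with a glutamate-leucine-arginine motif before the first cysteines attract neutrophils. In the mouse, Cxcl1, Cxcl2, Cxcl3, Cxcl5 and the processed product of Ppbp act on the G protein-coupled receptor CXCR2, which mature neutrophils carry at high density. In skin, IL-1, TNF and IL-17 raise Cxcl1, Cxcl2 and Cxcl5 in keratinocytes, fibroblasts and myeloid cells through NF-kappaB and through longer lifetimes of the mRNAs, whereas Ppbp is known as a product of megakaryocytes and platelets.

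The 5 ligand genes lay within 146.579 kb of mouse chromosome 5 (GRCm38), all on the plus strand. In order they were Cxcl5 (ENSMUSG00000029371, chr5:90759360-90761624), Ppbp (ENSMUSG00000029372, chr5:90768518-90770063), Cxcl3 (ENSMUSG00000029379, chr5:90786103-90789600), Cxcl1 (ENSMUSG00000029380, chr5:90891241-90893115) and Cxcl2 (ENSMUSG00000058427, chr5:90903871-90905938). Cxcr2 (ENSMUSG00000026180, chr1:74153989-74161246, plus strand) and Cxcr1 (ENSMUSG00000048480, chr1:74191785-74194631, minus strand) lay 40.643 kb apart from the start of one to the end of the other. None of the 7 had an exon overlap with another annotated gene in GENCODE M21.

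The stretches before the gene starts are shown because they differ between ligands that sit side by side. RefSeq promoters (GRCm38.p6) were found for 6 of the 7 genes, with Cxcl5 the missing entry. Shown are the 120 bases before the RefSeq start of 4 ligands, 5′ to 3′ on the plus strand, with matches to GGGANNTTCC (an NF-kappaB type motif, sought on both strands) and to TATAAA (the TATA box, sought on both strands) in capitals.
Cxcl1, chr5:90891125-90891244: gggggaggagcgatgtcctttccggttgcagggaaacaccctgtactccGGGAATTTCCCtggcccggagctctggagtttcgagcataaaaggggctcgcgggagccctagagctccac
Cxcl2, chr5:90903779-90903898: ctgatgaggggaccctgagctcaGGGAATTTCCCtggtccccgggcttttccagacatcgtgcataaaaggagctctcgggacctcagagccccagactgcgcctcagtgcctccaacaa
Cxcl3, chr5:90785981-90786100: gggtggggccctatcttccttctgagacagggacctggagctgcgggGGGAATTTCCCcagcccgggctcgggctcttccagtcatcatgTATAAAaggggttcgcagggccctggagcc
Ppbp, chr5:90768398-90768517: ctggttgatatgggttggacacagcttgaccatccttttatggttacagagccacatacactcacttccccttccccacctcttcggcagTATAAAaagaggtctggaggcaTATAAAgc

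Cxcl1, Cxcl2 and Cxcl3 held the same 11 letters, GGGAATTTCCC, which match GGGANNTTCC on both strands in overlapping positions. Counted from the RefSeq start, the matches ran from -71 to -61 in Cxcl1, from -97 to -87 in Cxcl2 and from -73 to -63 in Cxcl3. Over the window of 250 bases before to 50 after the start, GGGANNTTCC was found in 482 of 32851 mouse promoters (1.47%), and the full 11 letters, which were chosen after these sequences were read, in 14 (0.0426%), these 3 included. TATAAA was found in 13.6% of promoters. Among the 6 members searched it was found in Cxcl3 (-30 to -25) and at 2 positions in Ppbp (-30 to -25 and -8 to -3). TGANTCA, the AP-1 motif, was found in 7.81% of promoters. Among the 6 members searched it was in Ppbp alone (-204 to -198), outside the stretch shown, and Cxcl5 could not be searched. The windows of Cxcr1 and Cxcr2 held none of these letters on either strand.

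The transcripts differed at their other end as well. The heptamer TATTTAT is the core of the AU-rich elements that bind decay factors of the tristetraprolin family, and 27.6% of 21039 genes held at least 1 in their longest annotated 3′UTR. Cxcl1 held 6 in 592 bases and Cxcl2 held 7 in 1494 bases, numbers that 0.490% and 0.276% of genes reach. Cxcl3 held 2 and Cxcl5 held 1, and the 3′UTRs of Ppbp, Cxcr1 and Cxcr2 held none.

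Total counts lay between 74648669 and 79474215 per library, and MXL12, with 75986461, lay inside that range. MXL12 stood apart from the other libraries before any group was compared. Among 20817 genes that passed the filter on low counts, 49 had a level in MXL12 at least 4 times that in each of the other 8 libraries (0.235%), whereas the same count was 28 for MXL_3, 10 for MXL1 and 1 to 5 for the other 6 libraries. The fold changes of the members between the groups are therefore given with and without MXL12. The filter was passed by 6 of the 7 members, all but Cxcr1.

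All 7 members had their highest level in MXL12, against 14.5% of the tested genes. At least 4-fold above each other library were Cxcl5, Cxcr1 and Cxcr2, which makes 2 of the 6 members that passed the filter, against 0.235% of all tested genes. Because these levels chose the members, nothing is read from the counts. The plot of levels by library shows the spread of each gene.

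**Figure D1:**
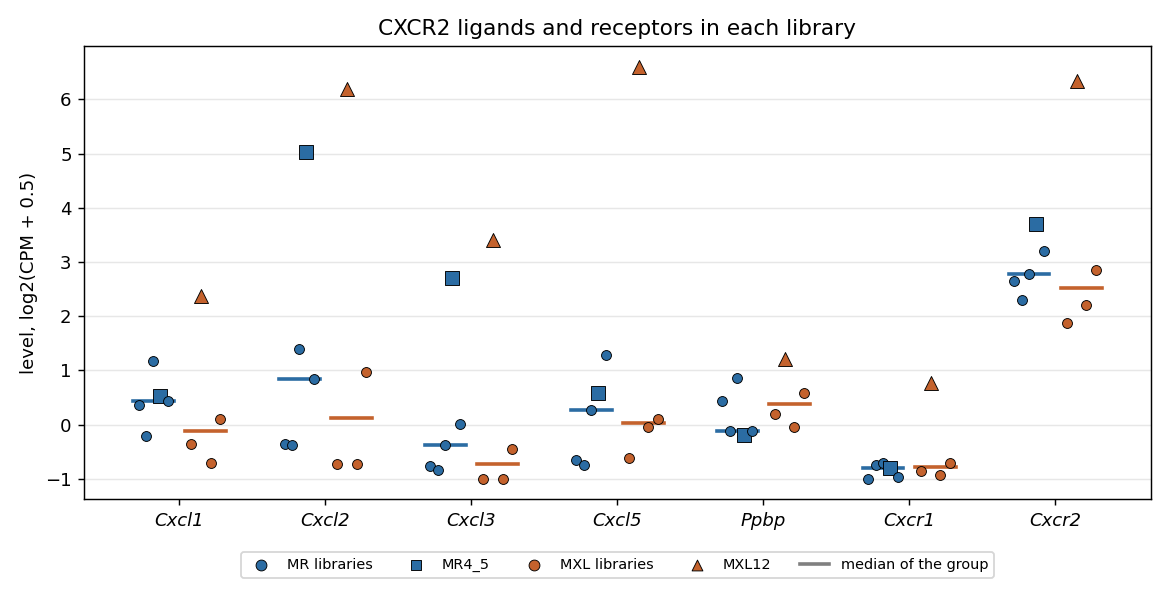
Level of each member, as log2 of the depth-scaled counts (CPM) plus 0.5, in the 5 MR libraries (blue) and the 4 MXL libraries (orange), with horizontal bars at the group medians. The MXL12 triangle is the highest point of every gene, and the MR4_5 square stands far above the remaining 7 points for Cxcl2 and Cxcl3 only.

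Cxcl5, a ligand made mainly by epithelial and stromal cells, had the widest range. In units of CPM, counts scaled to a common library size, its level was 0.133, 0.10, 0.703, 1.01 and 1.94 CPM in MR1, MR3, MR3_4, MR4_5 and MR5. In the MXL libraries it was 0.152 CPM in MXL1, 96.8 CPM in MXL12, 0.465 CPM in MXL3_4 and 0.581 CPM in MXL_3. MXL12 was thus 49.99-fold above the next library, MR5 (95% interval from the counts 42.6 to 59.1), while the other 3 MXL libraries lay inside the MR range. The counts behind these levels were 7316 for MXL12 and between 8 and 152 for the remaining 8, and counting intervals here and below cover counting error only.

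Cxcl2, an early product of macrophages, neutrophils and keratinocytes, was high in 2 libraries, 1 of each code. In the MR libraries, in the same order as above, its level was 0.279, 0.275, 2.14, 32.0 and 1.29 CPM. In MXL1, MXL12, MXL3_4 and MXL_3 it was 0.101, 72.4, 0.103 and 1.47 CPM. MXL12 stood 2.26-fold above MR4_5 (95% interval 2.16 to 2.37), and MR4_5 stood 15.0-fold above the highest of the remaining 7.

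Cxcl3, the close relative of Cxcl2, followed the same 2 libraries. The MR libraries had 0.0930, 0.0625, 0.276, 5.98 and 0.510 CPM, and the MXL libraries had 0 CPM in MXL1, 10.1 CPM in MXL12, 0 CPM in MXL3_4 and 0.235 CPM in MXL_3. MXL12 was 1.68-fold above MR4_5 (95% interval 1.5 to 1.89), and MR4_5 was 11.7-fold above the highest of the remaining 7. The 2 zeros allow up to 3 counts, a floor of 0.0375 to 0.0415 CPM at these depths. Of the distinct 50-base stretches of their transcripts, 5.84% of those of Cxcl2 and 3.51% of those of Cxcl3 are shared between the pair, so some reads could have been counted for either gene.

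Only 6 of the 20817 tested genes (0.0288%) were at least 4-fold higher in both MXL12 and MR4_5 than in each of the remaining 7 libraries. Cxcl2 and Cxcl3 were 2 of these 6, with Ccl3 and Ccl4, which encode CC chemokines of macrophages and neutrophils, the stefin gene Stfa2l1 and the long non-coding RNA gene Mirt2. This set was defined after the values of MR4_5 were seen. Cxcl5 had 1.01 CPM in MR4_5, where MXL12 was 96.1-fold higher, and so was not among the 6.

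Cxcl1, the ligand best known from keratinocytes and fibroblasts, varied less. Its level was 0.784, 0.362, 1.76, 0.945 and 0.854 CPM in the MR libraries and 0.278, 4.66, 0.116 and 0.581 CPM in the MXL libraries, in the order given above. MXL12 was 2.64-fold above the next library, MR3_4 (95% interval 2.15 to 3.26). Without MXL12, 4 of the 5 MR libraries lay above all 3 MXL libraries, and MR3 lay between them.

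Ppbp, the platelet chemokine gene, had the smallest excess in MXL12. Its level was 0.850, 0.425, 1.31, 0.378 and 0.421 CPM in the MR libraries and 0.645, 1.83, 0.465 and 0.996 CPM in the MXL libraries. The fold of MXL12 over MR3_4 was 1.4 (95% interval 1.07 to 1.83), and MR4_5, where Cxcl2 and Cxcl3 were high, was the lowest of the 9 libraries for Ppbp. Pf4, another platelet chemokine gene that begins 2371 bases after Ppbp ends, gave 317 counts in MXL12 and between 190 and 1229 elsewhere, so not every chemokine gene of this cluster was highest there.

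Cxcr2, the receptor of all 5 ligands, had the highest median level of the members outside MXL12. In the MR libraries it had 5.74, 4.41, 6.34, 12.5 and 8.74 CPM, and in the MXL libraries 3.15, 80.2, 4.10 and 6.70 CPM. MXL12 was 6.43-fold above MR4_5 (95% interval 6.02 to 6.89), and MR4_5 was next in order at 1.42-fold above MR5. Cxcr1, the second neutrophil receptor of this family, reached 91 counts in MXL12 but 0 to 8 elsewhere, a fold of 10.9 over the next library (95% interval 5.30 to 26.0). Its levels were 0, 0.10, 0.110, 0.0756 and 0.0127 CPM in the MR libraries and 0.0506, 1.2, 0.0258 and 0.111 CPM in the MXL libraries, so outside MXL12 no order among libraries could be read at this depth.

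Levels of different genes were compared in FPKM, which divides by transcript length. Over the 8 libraries other than MXL12 the median was 1.83 FPKM for Cxcr2, 0.488 for Ppbp, 0.364 for Cxcl2, 0.331 for Cxcl1, 0.256 for Cxcl5, 0.0406 for Cxcr1 and 0.0387 for Cxcl3. Cxcr2 lay above Ppbp in all 9 libraries and Cxcl5 above Cxcr1 in 8. Ppbp lay above Cxcl2 in 6 of 9, Cxcl2 above Cxcl1 in 5, Cxcl1 above Cxcl5 in 4 and Cxcr1 above Cxcl3 in 4, so these neighbours do not have a stable order. In MXL12 the order was different, with Cxcl5 at 49.1 FPKM, Cxcl2 at 33.1 and Cxcr2 at 24.9, followed by Cxcl3 at 2.72, Cxcl1 at 2.34, Ppbp at 1.58 and Cxcr1 at 0.753.

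The ligands summed to 88.9 FPKM in MXL12, 18.3 FPKM in MR4_5 and 0.723 to 3.28 FPKM in the other 7 libraries. Their mixture changed between libraries. Cxcl5 gave 55.3% and Cxcl2 37.2% of the sum in MXL12, whereas Cxcl2 gave 83.4% and Cxcl3 9.20% in MR4_5. Ppbp was the largest share in 6 of the other 7 libraries, at 33.4% to 68.5%, and Cxcl5 the largest in MR5, at 39.3%.

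**Figure D2:**
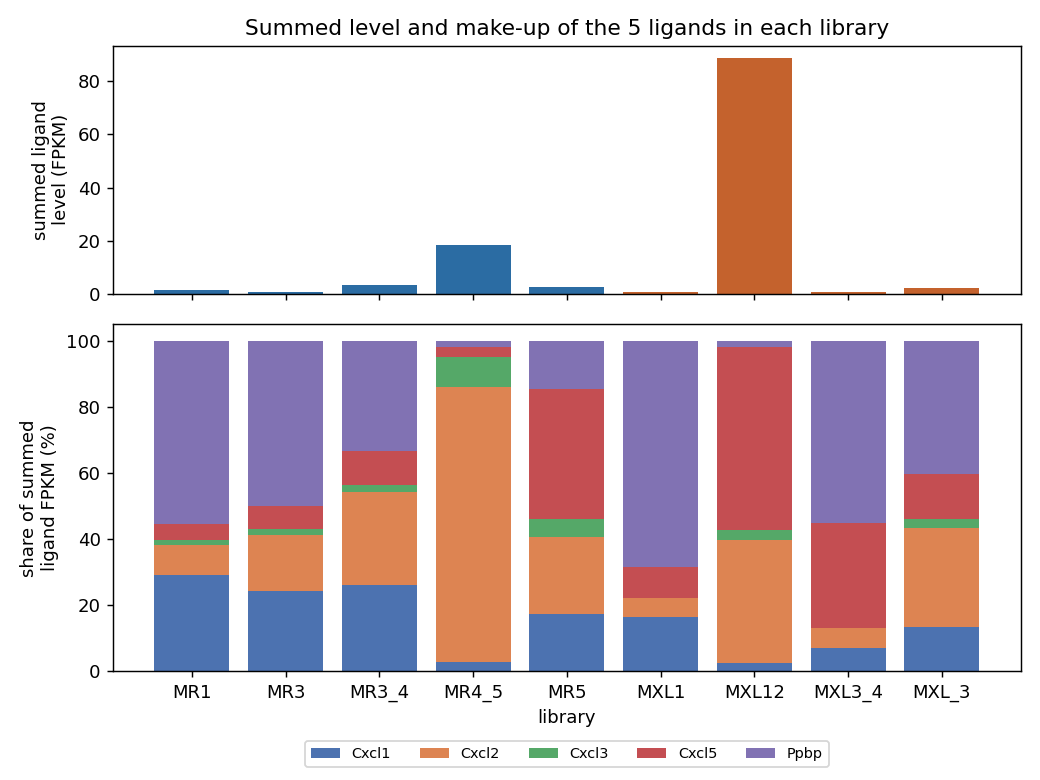
Top, sum of the FPKM of the 5 ligands in each library (bars from 0, MR in blue, MXL in orange), and bottom, the share of each ligand in that sum in percent. The sum is 88.9 FPKM in MXL12 and 18.3 FPKM in MR4_5, and Ppbp is the largest share in 6 of the other 7 libraries.

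The MR and MXL libraries were compared to ask whether the ligands and receptors were lower under the formulation. The log2 fold change, MR minus MXL, was -4.98 for Cxcl5 (SE 1.80, 95% interval -8.97 to -0.99), -1.36 for Cxcl2 (SE 1.86, -5.49 to 2.76) and -0.89 for Cxcl3 (SE 1.82, -4.93 to 3.14). It was -0.58 for Cxcl1 (SE 0.92, -2.61 to 1.45), -0.54 for Ppbp (SE 0.53, -1.71 to 0.64) and -1.64 for Cxcr2 (SE 0.88, -3.60 to 0.32), with a median of -0.03 over all tested genes. The MR and MXL ranges overlapped for all 7 members. edgeR's quasi-likelihood test called 0 of the 6 members and 0 of 20817 genes (0%) at an adjusted p under 0.05 with a 2-fold change. The genes with an unadjusted p under 0.05 numbered 326 (1.57%) and held 1 member, Cxcl5, from which nothing is read because this contrast chose the members. limma called 0 genes. DESeq2 called 2 genes, and among the members it gave an adjusted p to Ppbp alone, so the other 5 could not have been called.

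These differences rested on MXL12. Without it the log2 fold change was 0.96 for Cxcl5 (95% interval -1.16 to 3.08), 3.69 for Cxcl2 (-0.47 to 7.85), 4.14 for Cxcl3 (-0.24 to 8.52), 1.53 for Cxcl1 (0.06 to 3.00), 0.70 for Cxcr2 (-0.20 to 1.59) and -0.05 for Ppbp (-1.26 to 1.15). The sign thus turned for 5 of the 6 members, all but Ppbp. The values of Cxcl2 and Cxcl3 without MXL12 lean on MR4_5. It had 32.0 and 5.98 CPM of these genes, against at most 2.14 and 0.510 CPM in the other MR libraries. In the 6 libraries without MXL12, MR4_5 and MR5, the log2 fold change of Cxcl2 was 0.69. Without MR4_5 instead, Cxcl2 moved to -4.22 and Cxcl3 to -3.44, and the others kept their sign, with -5.09 for Cxcl5, -1.90 for Cxcr2, -0.58 for Cxcl1 and -0.39 for Ppbp. In a piece of skin, more cells of a type and more RNA per cell cannot be told apart.

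**Figure D3:**
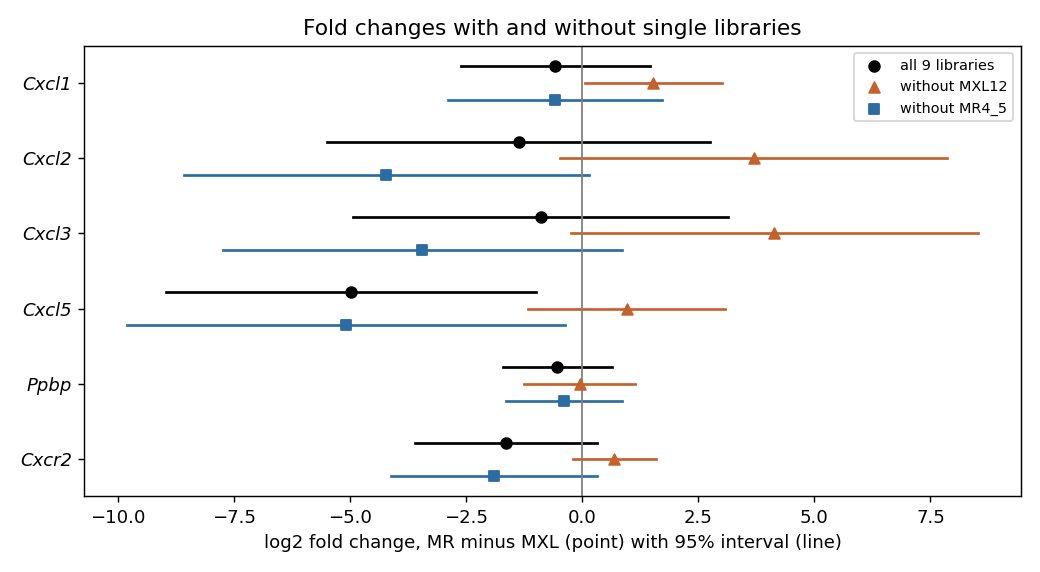
Log2 fold change of each tested member, MR minus MXL, with an approximate 95% interval from edgeR's F statistic. Shown are all 9 libraries (black), without MXL12 (orange) and without MR4_5 (blue). With all libraries every point is below 0, and without MXL12 every point but that of Ppbp, at -0.05, is above 0.

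The cytokines that induce these ligands were followed in a list of 11 genes, of which 8 passed the filter. edgeR called none in either direction, and the gene with an unadjusted p under 0.05 was Il1f6, which was higher in the MR libraries. The other 7 had a log2 fold change below 0, and the median of the 8 was -0.63 against -0.03 for all tested genes. Il1b, the gene of interleukin-1 beta, had 49835 counts in MXL12, 3988 in MR4_5 and 176 to 1106 in the other 7 libraries, with a log2 fold change of -3.36 (SE 1.60). An opposite-strand gene, Il1bos, overlaps its exons. The libraries were strand-specific, but whether the counting used strand is not given in the sources used here. The difference was -2.06 for Il6 (SE 0.95), another inflammatory cytokine, and 1.78 for Il1f6 (SE 0.42), the epidermal interleukin-36 alpha. Without MXL12 the list turned as the ligands did, with a median of 0.62 and 7 of 8 genes above 0. The log2 fold changes were then 2.06 for Il1b (SE 0.87), 0.32 for Il6 (SE 0.54) and 1.99 for Il1f6 (SE 0.46). The value of Il1b without MXL12 still held the high count of MR4_5.

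Of these 11 cytokines 8 were highest in MXL12, against 14.5% of all tested genes. Il1b, Il6 and Osm, the oncostatin M gene of neutrophils and macrophages, were there at least 4-fold above each other library, against 0.235%. Il17a, a cytokine of T cells that acts on keratinocytes, was not among the 8, with 0 counts in MXL12 and at most 24 elsewhere. Csf3, the gene of the neutrophil growth factor G-CSF, had 66 counts in MXL12, 12 in MR4_5, 4 in MR5 and 0 in the others. Il17a and Csf3 did not pass the filter.

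The receptors and signalling proteins of these cytokines formed a list of 10 genes. All 10 were tested, edgeR called none, 6 were above and 4 below 0, and the median log2 fold change was 0.01. Those furthest from 0 were the interleukin-1 receptor gene Il1r1 at -0.49 (SE 0.30), the interleukin-17 receptor gene Il17rc at -0.34 (SE 0.58) and the transcription factor gene Cebpb at 0.34 (SE 0.50). Without MXL12 these were -0.02 for Il1r1, -0.62 for Il17rc and 0.51 for Cebpb. Genes of the opposite strand overlap exons of Cebpb (Tmem189) and of Zfp36 (Gm44710), so the limit given for Il1b holds for them too. None of the 4 genes of feedback and mRNA decay was called either, with a median of -0.04, Zfp36 (tristetraprolin) at 0.41 (SE 0.39), the NF-kappaB inhibitor gene Tnfaip3 at -0.35 (SE 0.19) and the RNase gene Zc3h12a at -0.21 (SE 0.64), which without MXL12 were 0.70, -0.26 and -0.51.

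Other neutrophil chemoattractant and growth factor receptors numbered 7, all tested, with 0 called by edgeR and a median log2 fold change of -0.82. The formyl peptide receptor gene Fpr1 had -1.57 (SE 0.88), the chemokine receptor gene Ccr1 -0.92 (SE 0.70) and the G-CSF receptor gene Csf3r -0.84 (SE 0.70). Without MXL12 the median was 0.35, with -0.34 for Fpr1 and 0.59 for both Ccr1 and Csf3r. In MXL12, Ccr1 was at least 4-fold above each other library, and 4 of the 7 were highest, against 14.5% of all tested genes. Among the 5 CC chemokines of acute inflammation, of which 0 were called, Ccl3 had -1.20 (SE 1.27), Ccl4 -1.12 (SE 1.36) and Ccl20, the epidermal ligand of CCR6, 0.81 (SE 0.58). Ccl3 had 2988 counts in MXL12 and 1360 in MR4_5 against 50 to 189 elsewhere, and Ccl4 had 845 and 427 against 8 to 58. Without MXL12 the log2 fold change was 1.80 for Ccl3 (SE 1.04) and 1.92 for Ccl4 (SE 1.22), so both turned sign like Cxcl2 and Cxcl3. As for those genes, the values without MXL12 still held the high counts of MR4_5.

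Of 10 other CXC chemokines, 2 were highest in MXL12, against 14.5% of all tested genes. None of the tested ones was there 4-fold above each other library. Of the 9 that were tested edgeR called none, and the median log2 fold change was -0.03. Cxcl15, which lies between Cxcl3 and Cxcl1, had -0.97 (SE 0.93), the B cell chemokine gene Cxcl13 had 0.87 (SE 0.49) and the stromal Cxcl12 had -0.27 (SE 0.13). Without MXL12 these were -0.51 for Cxcl15, 1.48 for Cxcl13 and -0.23 for Cxcl12. The other CXC and atypical receptors, 6 of 6 tested and 0 called, had a median of 0.12, with Cxcr6 at -0.52 (SE 0.40), Cxcr5 at 0.51 (SE 0.70) and Cxcr3 at 0.18 (SE 0.62), all receptors of lymphocytes, and without MXL12 these were -0.26, 1.06 and 0.01. In these 6 lists outside the inducing cytokines, the unadjusted p of edgeR was under 0.05 for 0 genes, and DESeq2 called 0 genes of any list but gave no adjusted p to some of them, Il1b, Il6, Osm, Ccl3 and Ccl4 included.

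**Figure D4:**
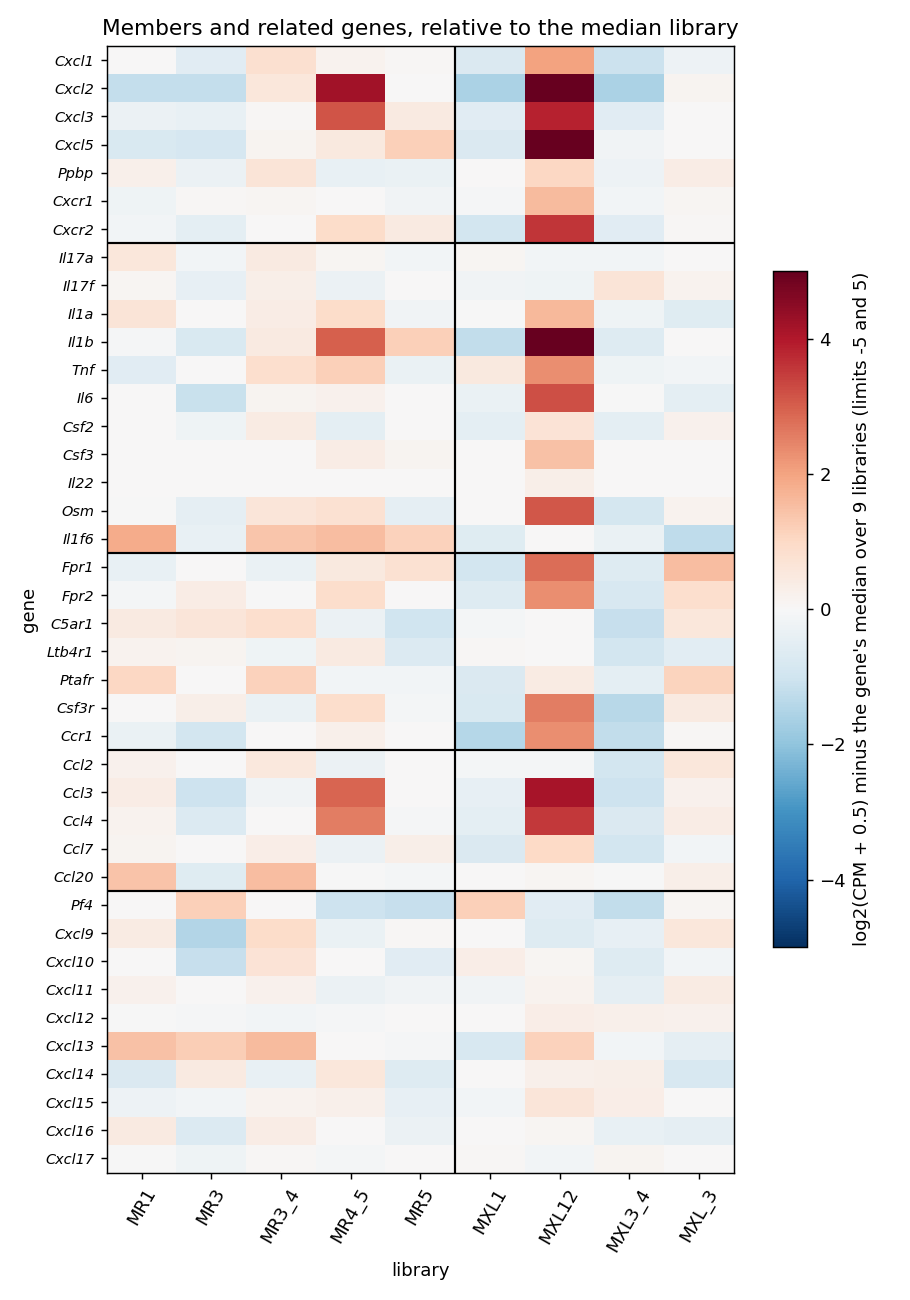
Level of the members (top block) and of 4 lists (inducing cytokines, other neutrophil receptors, CC chemokines and other CXC chemokines) in each library, as log2(CPM + 0.5) minus the gene's median over the 9 libraries, with colours limited to -5 and 5. The MXL12 column is red for all 7 members and, among other genes, for Il1b, Il6, Osm, Ccl3 and Ccl4, and the deepest red of the MR4_5 column is at Cxcl2, Cxcl3, Il1b, Ccl3 and Ccl4.

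Most markers of neutrophils were highest in MXL12, as the members were, but by folds that differed widely. Of 20 neutrophil genes, 15 were highest there, against 14.5% of all tested genes. The 20 genes summed to 1047 CPM in MXL12, against 112 to 231 CPM in the MR libraries and 100.3 to 205 CPM in the other MXL libraries. MR4_5 had the highest sum of the other 8, and Trem1, Clec4d, Hdc and Acod1 were at least 4-fold higher in MXL12 than in each other library. S100a9 stood 3.48-fold above the next library, MR4_5. Other genes of the list barely exceeded the next library, MXL_3. The fold was 1.28 for Ly6g (counting interval 0.90 to 1.83), 1.36 for Retnlg and 1.07 for Mmp8. The sum in MXL12 held 256 CPM of S100a9 and 1.05 CPM of Ly6g. Which cells made the transcripts of this list was not tested. Between MR and MXL, edgeR called none of the 19 neutrophil genes tested. All 19 had a log2 fold change below 0, with a median of -1.15 against -0.03 for all tested genes. Without MXL12 the median was 0.05, with 10 genes above and 9 below 0. The granule genes of neutrophil precursors did not follow. Ngp had 3.08 CPM in MXL12 and 20.5 CPM in MXL_3, Ltf had 2.42 and 12.5 CPM, Camp had 0.530 and 2.34 CPM, and Elane was at 0 in MXL12. Mpo had 6 counts in MXL12 and 0 to 63 elsewhere. S100a8 and S100a9 of this list are also made by stressed keratinocytes, and the part of neutrophil numbers in the levels of the members was not tested.

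**Figure D5:**
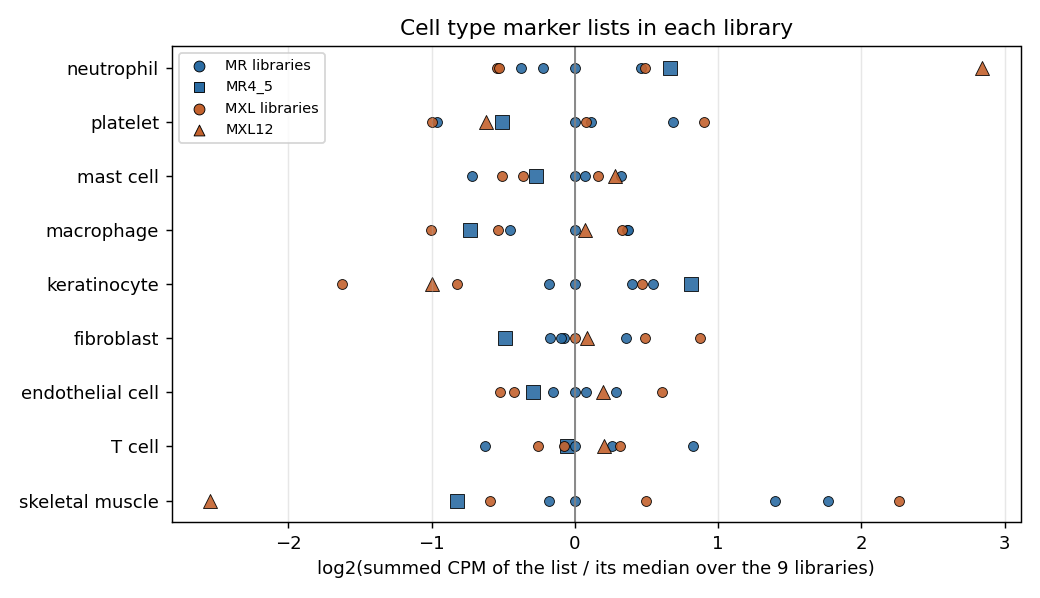
Summed CPM of 9 cell type marker lists in each library, as log2 of the ratio to the median library (MR in blue with MR4_5 as a square, MXL in orange with MXL12 as a triangle). MXL12 lies far to the right for neutrophil genes, 1047 CPM against at most 231 CPM elsewhere, and far to the left for skeletal muscle genes, 419 CPM against at least 1384 CPM.

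For the other 8 lists the sum in MXL12 was not the highest, and edgeR called none of their genes between the groups. Keratinocyte and fibroblast genes, the markers of skin, summed in MXL12 to 5168 and 16170 CPM, inside the ranges of the other 8 libraries (3345 to 18093 and 10881 to 27928 CPM). Ranked from the highest of the 9 libraries, MXL12 came 9 for Krt10 and Krt15 and 8 for Krt1, Krt5, Krt14 and Krt17. It came 3 for Trp63 and 2 for Krt6a and Krt16. Platelet genes summed to 8.75 CPM in MXL12 and 6.72 to 25.1 CPM elsewhere, with 0 of 10 highest in MXL12, beside the highest level of Ppbp there. The sums for mast cells (503 CPM), macrophages (1010 CPM), endothelial cells (583 CPM) and T cells (29.0 CPM) in MXL12 were also within the ranges of the others. Skeletal muscle genes were lowest in MXL12, at 419 CPM against 1384 to 11753 CPM, and the part of the muscle share in the members' levels was not tested.

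Genes whose pattern was most like that of Cxcl5 and Cxcr2 were sought by Pearson's r of log2(CPM + 0.5) over the 9 libraries, which share MXL12 as an extreme point. For Cxcr2 they were Nlrp3 (r = 0.989, Spearman's rho 0.967), Mcpt8 (0.989, 0.917), Il1rl1 (0.988, 0.900), Il1b (0.987, 0.967) and Treml4 (0.985, 0.933). Without MXL12 their r lay between 0.921 and 0.966. Outside MXL12, each of these genes had its highest count in MR4_5, where Cxcr2 was also highest, so that library can carry the r without MXL12. For Cxcl5 they were Dynap (r = 0.975, rho 0.818), Nr4a3 (0.970, 0.700), Gm8307 (0.968, 0.783), Saa2 (0.966, 0.762) and Ptgs2 (0.963, 0.883), and without MXL12 their r was 0.611 to 0.785.

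The members also differed in how far they followed each other. Cxcl2 and Cxcl3 had r = 0.986 over the 9 libraries and 0.971 without MXL12, and Cxcl2 and Cxcr2 had 0.902 and 0.879. Outside MXL12, all of these genes were highest in MR4_5, which can carry the r that remain. For Cxcl5 and Cxcr2 the values were 0.962 and 0.753, and for Cxcl1 and Cxcl2 0.809 and 0.569. Cxcr1 and Cxcr2 had 0.900 with MXL12 and 0.0784 without it, where Cxcr1 had at most 8 counts. Ppbp and Cxcl2 had 0.418 and -0.14.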

How the data were processed

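Back skin RNA was isolated with TRIzol and sequenced from both ends after polyA capture. The authors deposited raw counts, 1 whole number per gene and library. The authors also deposited FPKM values, which are counts scaled for transcript length and depth, in a table whose 9 further per-library columns repeat the counts and were not used. The submitters' processing notes name HISAT, StringTie, DESeq2 and mm10, and their roles, the versions and the use of strand are not given in the sources used here.

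The count test was edgeR 4.0.16 under R 4.3.3, with filterByExpr, TMM, the quasi-likelihood test, Benjamini-Hochberg adjustment over all genes tested and no covariate. A called gene had an adjusted p under 0.05 and changed at least 2-fold. CPM used TMM-scaled library sizes. Alternatives used DESeq2 1.42.0 and limma 3.58.1 on log2(FPKM + 1), other filters, DESeq2's size factors, each library left out and a replicate block. For the folds of MXL12, FPKM, CPM on total counts, counts over DESeq2's size factors and CPM + 0.5 were tried. The steps were tested on simulated data. No 2 libraries were alike within counting error. Labels do not say more of replicates than that the samples are separate mice.

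The members and lists were chosen with earlier results of these data known. All members are named, with up to 3 tested genes of each pathway list with the largest absolute log2 fold change and the 5 genes most like Cxcl5 and Cxcr2. Other genes were named after their values were seen. Motifs and positions came from GENCODE M21 and RefSeq and were read with Python 3.11.15.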

Additional observations from a re-analysis of the deposited data

Results flagged for a closer look

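Samples far from the others of their group were sought for the 7 members and the neutrophil marker score on log2(CPM + 0.5), by the gap to the nearest library divided by the range of the group (Dixon's ratio). In all, 16 groups were examined, and the 95% critical value is passed by about 1 in 20 groups by chance. It was passed in MXL12 by Cxcl5 (ratio 0.899), Cxcl3 (0.874) and Cxcr1 (0.873), each high among the MXL libraries. In MR4_5 it was passed by Cxcl3 (0.761), high among the MR libraries. The members were chosen for their levels in MXL12 and in the MR against the MXL libraries. The ratios in MXL12 and in MR4_5 are therefore a description and are not set against chance.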

How the results depend on the processing

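Without MXL12 the log2 fold change, MR minus MXL, turned to 1.53 for Cxcl1, 3.69 for Cxcl2, 4.14 for Cxcl3, 0.96 for Cxcl5 and 0.70 for Cxcr2. With each library left out in turn it ranged from -0.97 to 1.53 for Cxcl1, -4.22 to 3.69 for Cxcl2, -3.44 to 4.14 for Cxcl3, -5.65 to 0.96 for Cxcl5, -2.01 to 0.70 for Cxcr2 and -0.92 to -0.05 for Ppbp, and edgeR called 0 members and 0 genes each time. DESeq2's Wald test called 2 genes, neither of them Ppbp, the only member to which it gave an adjusted p. No member turned sign with another normalization, test or filter in which it was tested. With limma the values on the log2(FPKM + 1) scale, which understates changes of low genes, were -1.17 for Cxcl5, -0.28 for Cxcl2, -0.14 for Cxcl3, -0.05 for Cxcl1, -0.41 for Cxcr2 and -0.21 for Ppbp, and the filter of at least 10 counts in every library left 2 members to test. Of 3 members at least 4-fold higher in MXL12, Cxcr1 fell to 2.79-fold with CPM + 0.5.

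A replicate block from the codes that MR and MXL columns share could use 6 libraries, without MXL12, MR4_5 and MR5. Deviations of same-coded libraries from their group means had correlations of 0.22, 0.12 and -0.22. No correlations of differently coded libraries were computed for comparison, so whether a shared code marks related libraries cannot be told. With the block the log2 fold change was 1.52 for Cxcl1, 1.18 for Cxcl2, 0.23 for Ppbp, 0.30 for Cxcr2 and -0.64 for Cxcl5, the one member tested that stayed below 0. The same 6 libraries without the block, chosen after seeing the data, gave 1.57, 0.69, 0.29, 0.24 and -0.36, and neither fit called a gene. Depth limits Cxcr1 most, with at most 8 counts outside MXL12, and then Cxcl3, with 0 counts in 2 libraries.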
